A study of Mus musculus with 12 samples.

Results

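Genes of the titin filament, the thick filament, the M-band and the Z-disc were followed through the H3K27ac maps of mouse cardiomyocytes (CMs): *Ttn*, *Mybpc3*, *Myom1*, *Actn2*, *Ldb3*, *Myoz2*, *Csrp3*, *Tcap* and *Nexn*. Their regions were all H3K27ac-enriched regions that overlap the gene body extended by 5 kb on each side (GENCODE M21, GRCm38). By this rule 47 of 53754 regions in control CMs and 49 of 45521 regions in RIP140-null (KO) CMs belonged to the 9 genes. The rule used gene positions and no measured value.

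H3K27ac, an acetylated form of histone H3 found at active promoters and enhancers, was mapped by CUT&RUN, in which an antibody tethers a nuclease to chromatin and the released DNA is sequenced. The KO CMs came from csNrip1-/- mice (Nrip1 f/f Cre+), in which Cre recombinase under the Nkx2.5 promoter deletes the floxed Nrip1 alleles, and the control CMs from Cre-negative littermates (Nrip1 f/f Cre-) that carry the same floxed alleles. Mice were male, per the paper, and 10 to 12 weeks old, and no treatment is named. The floxed line was on a C57BL/6J background, and each experiment used 200000 CMs. Each genotype had 3 H3K27ac and 3 IgG replicates. No group carried Cre without floxed alleles, so effects of Cre itself and of the deletion cannot be told apart. Nrip1 encodes RIP140, a transcriptional corepressor.

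The values come from 1 list of regions per genotype, merged by the authors from regions found in at least 2 of 3 replicates. The lists hold no signal and no value per replicate, so no replicate error, test or depth can be given, and every difference between the genotypes is a description of those lists. Within Nrip1, the last exon (chr16:76287400-76295015), which holds the coding sequence and lies in the floxed segment, had 2904 bp covered in control and 0 bp in KO CMs, and the rest of the gene had 50877 and 48453 bp. The promoters of 7 of 7 CM markers were touched in both lists. Those of 0 of 5 fibroblast, 0 of 4 macrophage, 3 of 5 endothelial and 1 of 3 smooth muscle and pericyte markers were touched in both lists. The summed covered length in control and KO CMs was 92608 and 100329 bp over the CM markers and 95760 and 102309 bp over the endothelial markers. It was 1560 and 834 bp over the fibroblast, 1173 and 4128 bp over the macrophage and 7526 and 7581 bp over the smooth muscle and pericyte markers, where Col1a2, Dcn, Tcf21, Ptprc, Csf1r, Adgre1, Rgs5 and Pdgfrb had 0 bp in both lists. Among the endothelial markers, the log2 ratio of covered length, KO to control, was -1.54 at Cdh5, -0.60 at Tie1, -0.062 at Tek, 0.31 at Kdr and 0.32 at Pecam1. Macrophage Cd68 had a ratio of 1.82, and fibroblast Pdgfra had 796 bp in control and 0 bp in KO CMs. The part of other cells in the results below was not tested.

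The sarcomere is the contractile unit of the CM. Thin actin filaments are anchored at the Z-disc, thick myosin filaments are crosslinked at the M-band, and titin spans the distance between both structures as a molecular spring. *Ttn* encodes titin, *Mybpc3* the cardiac myosin-binding protein C that sits on the thick filament and tunes crossbridge cycling, and *Myom1* myomesin, which links titin and myosin at the M-band. *Actn2* encodes α-actinin, the main crosslinker of actin in the Z-disc. *Ldb3* encodes Cypher/ZASP, a PDZ and LIM protein that binds α-actinin. *Myoz2* encodes calsarcin, a Z-disc protein that binds calcineurin. *Csrp3* encodes muscle LIM protein, *Tcap* encodes telethonin, which caps the end of titin in the Z-disc, and *Nexn* encodes nexilin, an actin-binding protein. Variants of several of these genes are known causes of inherited cardiomyopathy, and most of the genes are used in skeletal muscle as well.

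The promoters of 4 of the genes are shown because the covered length around their starts differed in different ways, and because 3 of them hold consensus motifs of factors known for muscle promoters. Each sequence gives the 250 bp before the annotated gene start in GRCm38, read 5′ to 3′ on the strand of the gene, with motif matches in capitals. Motifs searched on both strands were those of MEF2 and of serum response factor (the CArG box), the GATA motif GATAAG, the TEAD motif CATTCCA (MCAT) and the estrogen-related receptor (ERR) motif TCAAGGTCA. All 4 promoters lay within regions of both lists.
*Ttn*, chr2:76982548-76982797, minus strand, MEF2 match in capitals: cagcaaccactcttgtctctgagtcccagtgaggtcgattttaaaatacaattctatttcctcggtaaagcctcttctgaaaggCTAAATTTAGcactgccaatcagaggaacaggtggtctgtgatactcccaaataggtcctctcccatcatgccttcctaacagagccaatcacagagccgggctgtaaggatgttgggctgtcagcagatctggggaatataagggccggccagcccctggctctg
*Mybpc3*, chr2:91117894-91118143, plus strand, MEF2 and then GATA match in capitals: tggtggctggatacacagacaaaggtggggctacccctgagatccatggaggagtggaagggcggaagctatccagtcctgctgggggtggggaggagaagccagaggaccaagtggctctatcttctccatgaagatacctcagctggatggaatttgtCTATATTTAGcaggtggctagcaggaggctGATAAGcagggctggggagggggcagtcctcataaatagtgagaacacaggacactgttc
*Ldb3*, chr14:34588683-34588932, minus strand, CArG box in capitals: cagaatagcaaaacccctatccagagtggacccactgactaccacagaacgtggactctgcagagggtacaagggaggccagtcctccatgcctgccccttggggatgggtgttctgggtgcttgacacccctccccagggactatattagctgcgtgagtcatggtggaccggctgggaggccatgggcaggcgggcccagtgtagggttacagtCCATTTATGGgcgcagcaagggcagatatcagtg
*Tcap*, chr11:98383561-98383810, plus strand, no match: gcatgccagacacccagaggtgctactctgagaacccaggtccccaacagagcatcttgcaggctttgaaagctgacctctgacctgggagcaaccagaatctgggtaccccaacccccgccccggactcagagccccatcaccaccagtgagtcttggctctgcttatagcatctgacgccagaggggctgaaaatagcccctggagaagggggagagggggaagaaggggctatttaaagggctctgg

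The MEF2 match ended 157 bp before the start of *Ttn* and 81 bp before that of *Mybpc3*. Over 21938 protein-coding genes, 0.465% of such 250-bp stretches held a MEF2 match, 1.33% a CArG box, 6.14% GATAAG, 3.13% CATTCCA and 0.442% TCAAGGTCA. The CArG box of *Ldb3* ended 25 bp before the gene start. *Mybpc3* also held GATAAG 55 bp before its start, and *Myoz2* held it at 2 places. The promoter of *Myom1* at its GENCODE start held CATTCCA. The stretches of *Actn2*, *Csrp3*, *Nexn* and *Tcap* held no match to these letters. A second start of *Myom1*, given in the RefSeq promoter table (GRCm38), lies 17 kb inside the GENCODE gene. It had a CArG box close to the start and was covered in both lists:
*Myom1*, chr17:71019307-71019506, plus strand, CArG box in capitals: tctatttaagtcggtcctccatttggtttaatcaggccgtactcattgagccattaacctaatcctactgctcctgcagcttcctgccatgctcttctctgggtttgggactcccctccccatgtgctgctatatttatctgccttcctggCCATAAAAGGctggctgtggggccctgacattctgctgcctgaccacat

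The genotypes did not differ in whether these promoters were marked. A promoter was taken as 1000 bp upstream to 100 bp downstream of the gene start. All 9 promoters were touched in both lists, and the start position of all 9 genes lay inside a region in both. Over 21938 protein-coding genes, 45.4% of promoters were touched in control and 48.1% in KO CMs. The promoter window was covered over its full 1101 bp in both lists at 7 of the genes. The exceptions were *Actn2*, with 520 bp in control and 795 bp in KO CMs, and *Myoz2*, with 1101 and 1030 bp. Of the 42 distinct starts of protein-coding transcripts annotated for the 9 genes, 27 were covered in control and 27 in KO CMs, and no region found in 1 genotype alone covered any of them.

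**Figure D1:**
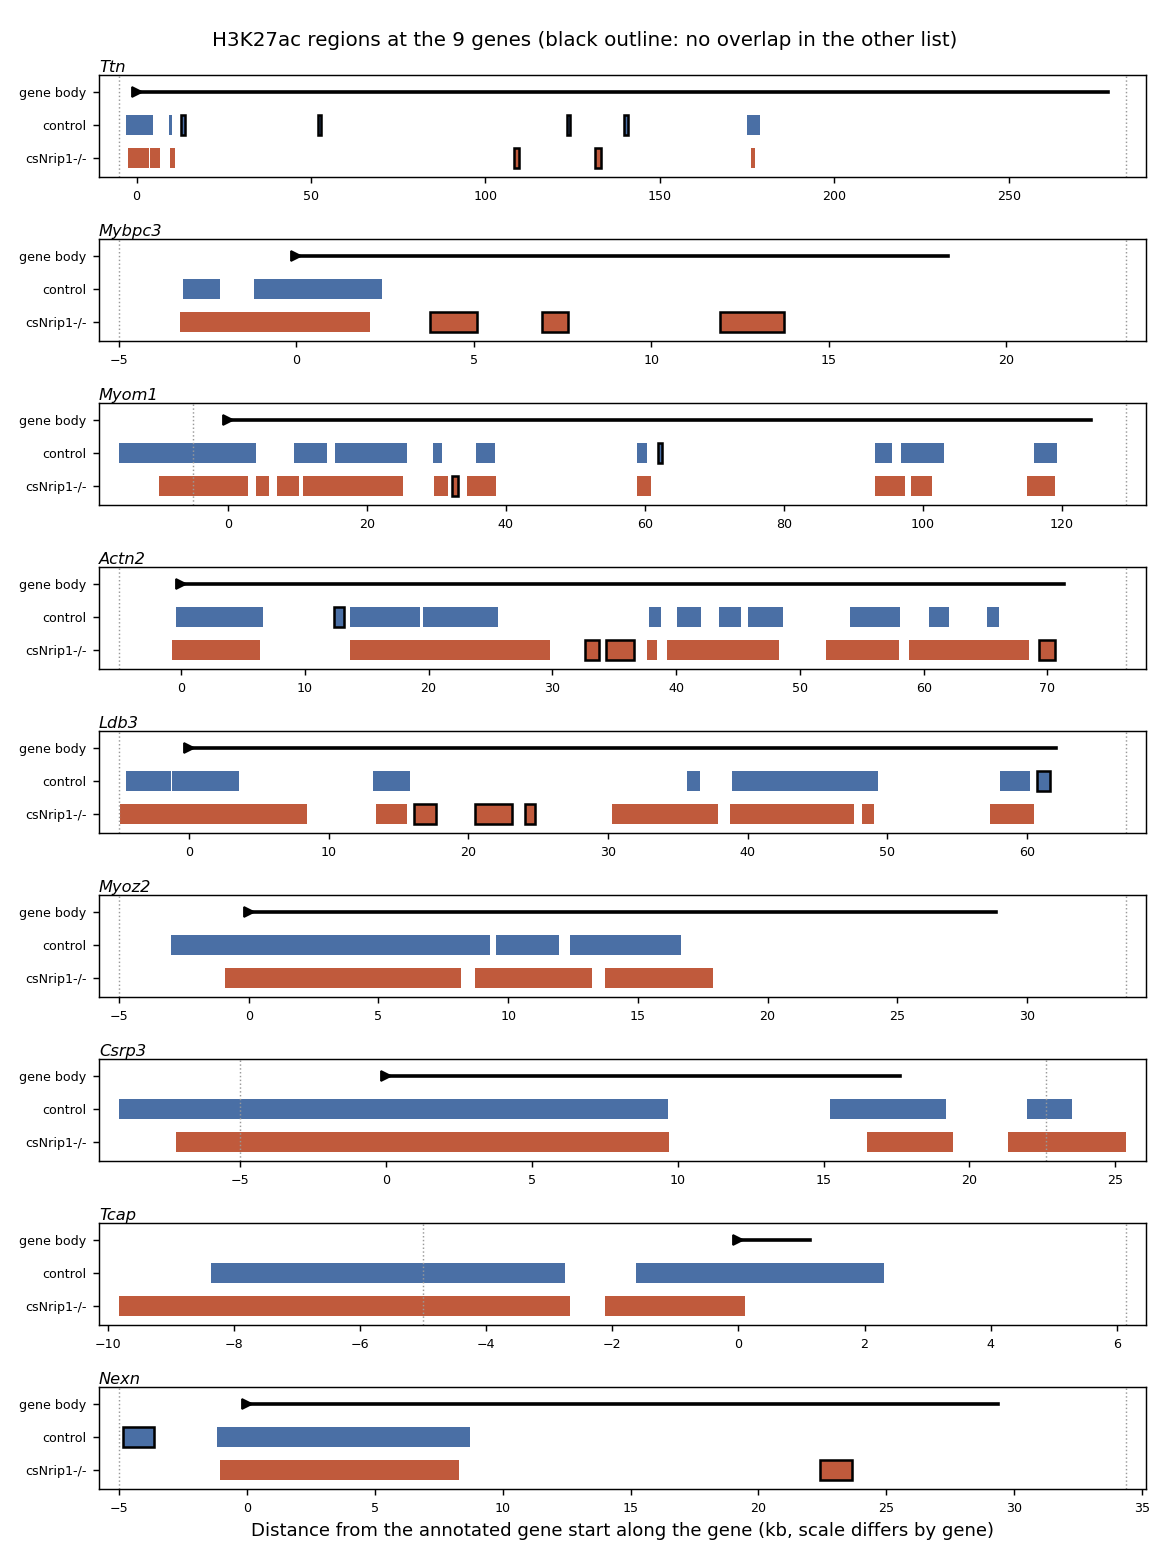
Position of each H3K27ac region along the 9 genes in kb from the gene start, with control regions in blue, csNrip1-/- regions in red, the gene body as a black line and the ends of the extended gene as dotted lines; black outlines mark regions without overlap in the other list. Blue and red regions sit on every gene start, and the outlined regions (8 control, 13 KO) do not reach these starts.

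Within the 9 extended genes (721538 bp in all), 177357 bp were covered in control and 217872 bp in KO CMs, a 1.23-fold ratio (log2 0.30). The 2 lists had 151569 bp in common, which was 85.5% of the control length and 69.6% of the KO length. Genome-wide, the lists had 112128912 bp in common, with 39130498 bp in control CMs alone and 42083555 bp in KO CMs alone. The genes fell into uneven groups. *Mybpc3*, *Actn2* and *Ldb3* had over 1.5-fold more bases covered in KO CMs, *Myom1* had slightly more, and the other 5 had fewer, by 1.02-fold at *Csrp3* to 1.36-fold at *Tcap*. The 3 genes over that limit together went from 63428 to 103548 bp, and the other 6 from 113929 to 114324 bp (log2 0.0050), a split chosen after the values were seen. Over the 12989 protein-coding genes with bases covered in both lists, 16.3% had over 1.5-fold more and 8.6% over 1.5-fold fewer bases in KO CMs. Among the 9 genes these counts were 3 and 0. The median log2 ratio of the 9 was -0.025, beside 0.084 over all genes, where the middle 50% of genes ran from -0.20 to 0.39. The total therefore reflects 3 of the genes and not their typical member.

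**Figure D2:**
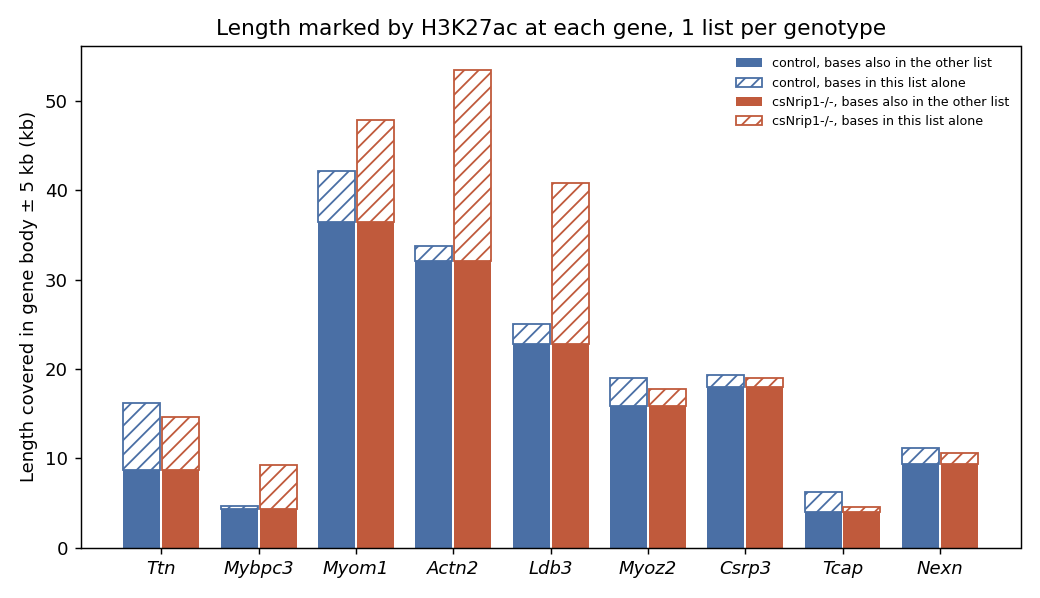
Length covered by H3K27ac in the extended gene (kb) for each gene and genotype, filled where the same bases are covered in the other list and hatched where they are not; each bar is 1 merged list and has no error bar. *Actn2* and *Ldb3* have the largest hatched KO segments, 21361 and 18030 bp.

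**Figure D3:**
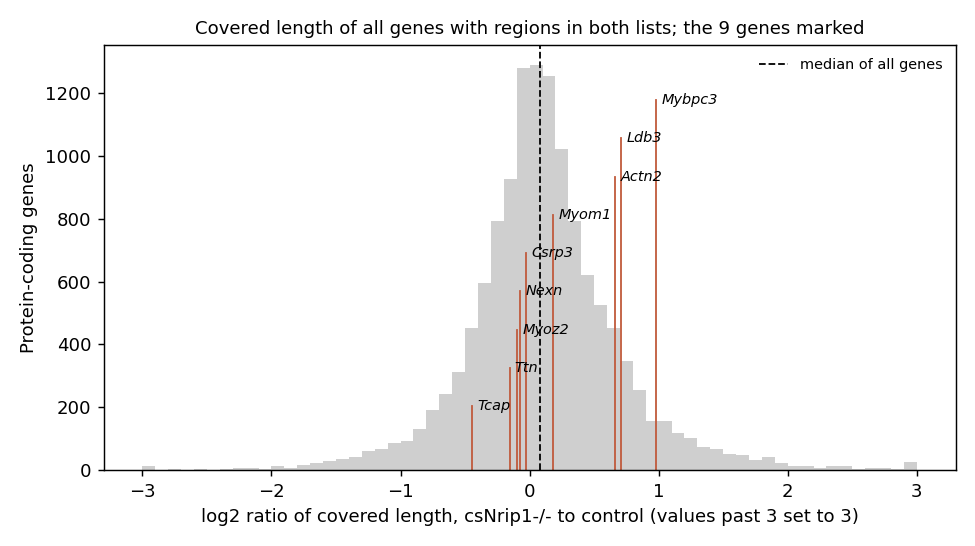
Number of protein-coding genes (vertical axis) by log2 ratio of covered length, csNrip1-/- to control (horizontal axis), for the 12989 genes covered in both lists, with the 9 genes as red lines of arbitrary height and the median of all genes dashed. *Actn2*, *Ldb3* and *Mybpc3* lie at 0.66 or above and *Tcap*, at -0.44, farthest to the left.

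Of the 47 control regions, 8 (17.0%, 95% Wilson interval 8.89% to 30.1%) overlapped no KO region. This share was 29.5% over all control regions. Of the 49 KO regions, 13 (26.5%, 16.2% to 40.3%) overlapped no control region, beside 21.5% over all KO regions. These intervals cover counting error only, and neighboring regions are not independent. Each background share lay within the interval of its list. The control-only regions measured 577 to 1239 bp (median 905.5 bp) and the KO-only regions 666 to 2653 bp (median 1282 bp). They were small beside all regions of these genes, whose median widths were 2727 bp in control and 3007 bp in KO CMs. The same held over the whole lists, where the median was 1045 bp for control-only and 2404 bp for shared control regions. In the KO list these medians were 1279 and 2694 bp. By their centers, 11 of 13 KO-only regions lay in introns and 2 in coding exons. Of the 8 control-only regions, 5 lay in introns, 1 in a coding exon, 1 in a 3′ UTR and 1 upstream of the gene. The center nearest to the main start of its gene was 4.24 kb away among the control-only and 4.42 kb away among the KO-only regions. Other annotated starts lay closer, 1112 bp from the center of a *Ttn* control-only region and 819 bp from that of the *Nexn* KO-only region.

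Regions were also merged across the lists into loci that both lists hold, and the covered length of each locus was compared. Counting 7 at *Myom1*, 6 at *Actn2* and 5 at *Ldb3*, the 9 genes had 29 such loci. Of these, 7 were over 1.5-fold wider in KO CMs, 2 over 1.5-fold narrower and 20 within that range, beside 17.3% wider and 10.3% narrower over all 32649 loci of both lists. The median log2 ratio of covered length was 0.20 over the 29 and 0.077 over all loci. The 9 loci that hold a gene start had a median of -0.0058 and ranged from -0.82 to 0.75. The other 20 had a median of 0.46 and ranged from -1.52 to 3.10. The loci of all genes were not split in this way, and the ratio of a short locus moves more with a small shift of an edge. In 6 of the 29 loci the KO list had fewer separate regions than the control list and in 4 it had more, beside 10.3% and 5.07% over all loci. The loci were not matched for width, and a wide locus has more room for separate regions. The loci with fewer, longer KO regions included 3 at *Actn2*.

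**Figure D4:**
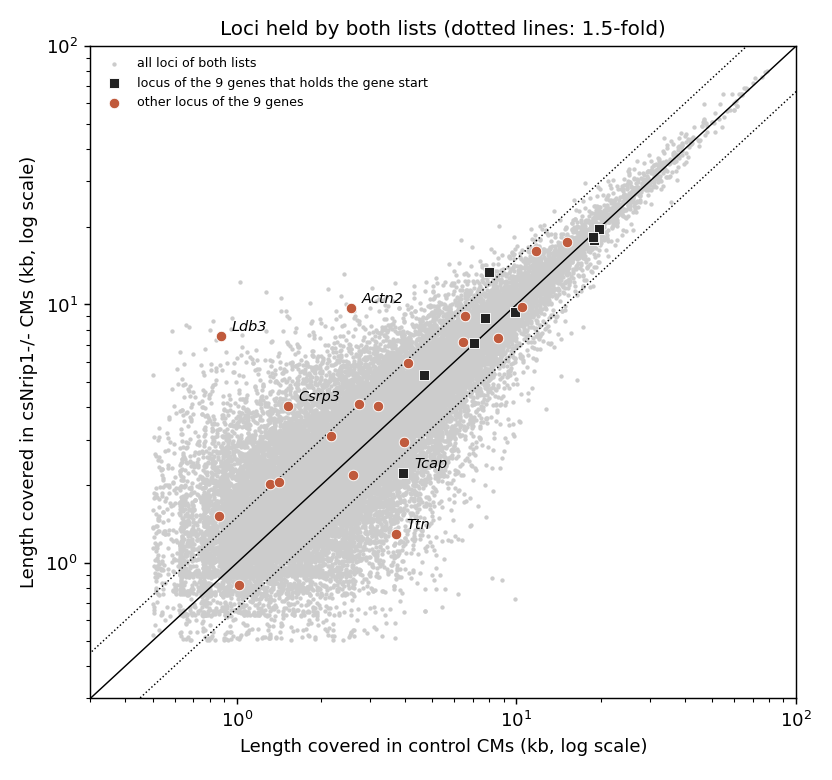
Covered length of each locus held by both lists in control (horizontal) and csNrip1-/- CMs (vertical), in kb on log scales, with all 32649 loci in gray, loci of the 9 genes that hold the gene start as black squares and their other loci as red circles. The black squares lie near the diagonal apart from *Ldb3* above and *Tcap* below the 1.5-fold lines, and red circles of *Ldb3*, *Actn2* and *Csrp3* lie farthest above it.

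Largely the same bases were also compared after each extended gene was divided into the 5 kb on each side of its start and the rest. Near the starts, 66483 bp were covered in control and 64896 bp in KO CMs (log2 -0.035). In the rest, 110874 and 152976 bp were covered (1.38-fold, log2 0.46). *Actn2* (28363 and 47778 bp) and *Ldb3* (17019 and 30924 bp) differed most there. *Ttn* (8540 and 7359 bp) and *Csrp3* (9291 and 8964 bp) had fewer such bases in KO CMs. Near the starts, the median over the 9 genes was -0.035, beside 0.088 over the 10828 genes with such bases in both lists. Away from the starts it was 0.24 over the 7 genes with such bases in both lists, beside 0.054 over 8195 genes. *Tcap* had no bases in the second class, and *Mybpc3* had them in KO CMs alone.

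**Figure D5:**
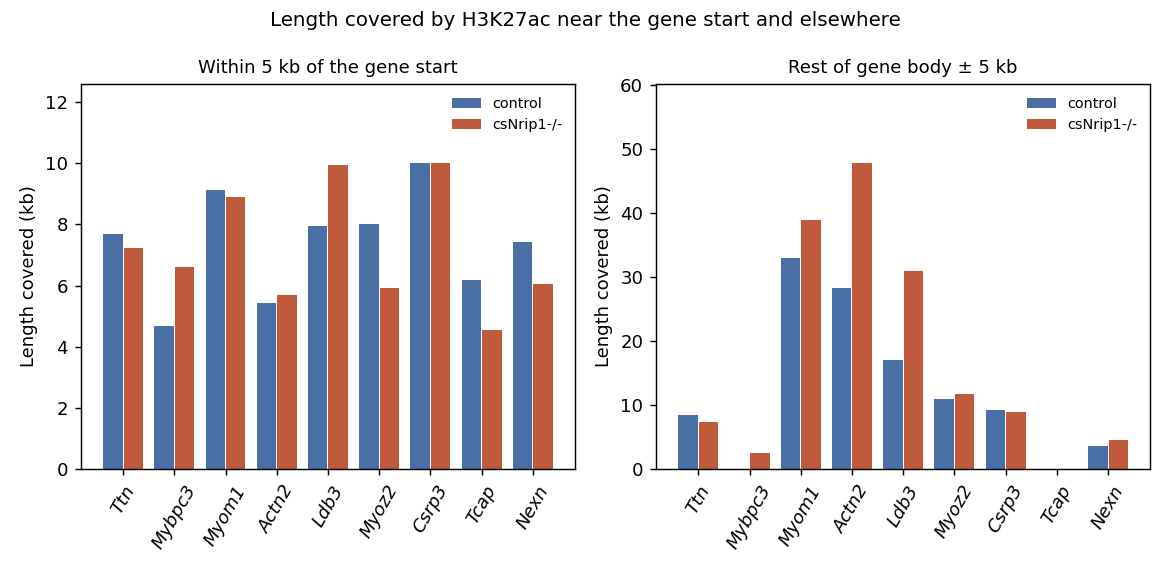
Length covered by H3K27ac (kb) within 5 kb of the gene start (left) and in the rest of the extended gene (right) for each gene, control in blue and csNrip1-/- in red, 1 merged list per bar. The left bars of *Csrp3* are at their ceiling in both genotypes, and the right bars differ most at *Actn2* (28363 and 47778 bp) and *Ldb3* (17019 and 30924 bp).

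Titin is the scaffold on which the other proteins are arranged, and *Ttn* (ENSMUSG00000051747, chr2:76703980-76982547, minus strand) is by far the longest of the 9 genes, with 347 exons in its main transcript. It was also the most sparsely marked. H3K27ac covered 16233 bp in control and 14585 bp in KO CMs, 5.63% and 5.05% of the extended gene (log2 -0.15). Only 8738 bp were covered in both lists, which was 53.8% of the control and 59.9% of the KO length, the lowest share of the control length among the 9 genes. The region at the gene start measured 7693 bp in control and 5986 bp in KO CMs, where a second KO region of 2920 bp followed in intron 2 and brought the locus to 8906 bp. Beyond this locus the lists had little in common. Control CMs had 4 regions of their own, in introns 43, 119 and 149 and in exon 8 (709 to 1225 bp). KO CMs had 2, in introns 98 and 135 (1282 and 1591 bp). A shared locus in intron 223, 174925 bp from the start, was 2.87-fold narrower in KO CMs (3707 and 1291 bp), and 1 in intron 6 was 1.75-fold wider (865 and 1515 bp).

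*Mybpc3* (ENSMUSG00000002100, chr2:91118144-91136516, plus strand) had the largest ratio of the 9 genes. H3K27ac covered 4670 bp in control and 9215 bp in KO CMs (1.97-fold, log2 0.98), which was 16.5% and 32.5% of the extended gene. This placed *Mybpc3* at the 93.4th percentile of all genes covered in both lists. At the start, the control list had 2 regions of 1056 and 3614 bp, and the KO list 1 region of 5357 bp that also spanned the gap between them, so the locus itself differed little (1.15-fold). The rest of the difference came from 3 KO-only regions inside the gene, in intron 10 (1327 bp), intron 18 (734 bp) and intron 23 (1797 bp). No control region reached farther than 2417 bp downstream of the start. The nearest start to the third of these regions was that of the neighboring gene *Madd*, 8272 bp away.

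*Myom1* (ENSMUSG00000024049, chr17:71002633-71126856, plus strand) had 10 control and 11 KO regions, which covered 42102 and 47867 bp (log2 0.19). The region over its GENCODE start, 19749 bp wide in control and 12848 bp in KO CMs, was centered closer to the start of *Myl12a*, the gene of a myosin regulatory light chain, which lies 429 bp from the center in control and 611 bp in KO CMs. The locus as a whole had nearly the same length in both (19749 and 19670 bp). Around the second start, control CMs had regions of 4741 and 10428 bp, and KO CMs a single region of 14328 bp beside a smaller one of 3111 bp. Of the 7 loci of *Myom1*, 5 were longer and 2 shorter in KO CMs, and the 2 that passed 1.5-fold did so narrowly (1.54-fold in intron 2 and 1.51-fold in intron 5). Each list had 1 region of its own, of 577 bp in control (intron 12) and 911 bp in KO CMs (intron 3).

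*Actn2* (ENSMUSG00000052374, chr13:12269426-12340760, minus strand) had the most bases covered in KO CMs of the 9 genes, 53473 bp beside 33783 bp in control (1.58-fold, log2 0.66), 65.7% and 41.5% of the extended gene. Nearly all control bases were also covered in KO CMs (95.1%), while 21361 bp were covered in KO CMs alone. The locus at the gene start measured 7053 and 7117 bp and differed by 1.01-fold. In intron 1, control regions of 6092 and 5639 bp lay within a single KO region of 16167 bp that the authors' merging assembled from 13 subpeaks. The number of subpeaks counts peaks joined across replicates, so by itself it does not show structure within a region. Toward the end of the gene, 2 control regions of 984 and 1568 bp lay within a KO region of 9698 bp that touched 6 exons, a 3.80-fold wider locus. KO-only regions lay in intron 4 (1144 bp), intron 5 (2240 bp) and exon 20 (1278 bp), and 1 control-only region of 780 bp lay in intron 1. Of the 6 loci of *Actn2*, 5 were longer in KO CMs.

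*Ldb3* (ENSMUSG00000021798, chr14:34526603-34588682, minus strand) had 24975 bp covered in control and 40860 bp in KO CMs (1.64-fold, log2 0.71), 34.6% and 56.7% of the extended gene. It was the sole gene of the 9 whose start locus was over 1.5-fold wider in KO CMs. A KO region of 13410 bp reached 8474 bp into the gene, where the control region reached 3588 bp. The upstream part of this locus, 1 control region of 3189 bp, was centered 266 bp from the start of *Opn4*. A shared locus in intron 8 measured 876 bp in control and 7533 bp in KO CMs, the largest fold of the 29 loci (8.60-fold). Between the start and this locus lay 3 KO-only regions, of 1531 bp in intron 5, 2653 bp over exon 7 and 666 bp in intron 7. The widest control region, 10442 bp centered in intron 9, overlapped KO regions of 8917 and 843 bp, and 1 control-only region of 920 bp lay in the 3′ UTR.

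*Myoz2* and *Csrp3* had no region of 1 genotype alone. At *Myoz2* (ENSMUSG00000028116, chr3:123006206-123035015, minus strand), 3 regions in each list covered 18990 bp in control and 17764 bp in KO CMs (log2 -0.096). The region at the start reached 3014 bp upstream in control and 929 bp in KO CMs, and it measured 12303 and 9115 bp. At *Csrp3* (ENSMUSG00000030470, chr7:48830398-48848033, minus strand), H3K27ac covered 19292 and 18965 bp (log2 -0.025). This was 69.8% and 68.6% of the extended gene, the highest share of the 9 genes in both lists. The region over the start was the widest KO region of the 9 genes, 16888 bp from 11 subpeaks, beside 18800 bp from 7 subpeaks in control. A region downstream of *Csrp3* was 2.66-fold wider in KO CMs (1522 and 4046 bp). It lay partly past the end of the extended gene.

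*Tcap* (ENSMUSG00000007877, chr11:98383811-98384953, plus strand), the shortest of the 9 genes, had the lowest ratio, with 6190 bp covered in control and 4555 bp in KO CMs (log2 -0.44, the 12.7th percentile of all genes). The region at its start ended 2316 bp past the start in control CMs, beyond the end of the gene, and 109 bp past it in KO CMs. On the upstream side the KO region reached 2114 bp and the control region 1621 bp. The paper names *Tcap* among genes annotated to increased H3K27ac in KO CMs, from pooled tag counts and the nearest gene. Covered length is a different measure and holds no signal. Because *Tcap* is short, its ratio of covered length depends on the bounds of the window: within the gene body alone the log2 ratio was -3.38, and with an extension of 10 kb it was 0.021. A second locus upstream had 6439 bp covered in control and 7148 bp in KO CMs. Its control region within the rule, 5617 bp wide, and its KO region were centered 98 and 589 bp from the start of *Stard3*. *Nexn* (ENSMUSG00000039103, chr3:152236982-152266350, minus strand) had 11122 and 10588 bp covered (log2 -0.071), of which 9331 bp were in both lists. The region over its start measured 9883 bp in control and 9331 bp in KO CMs, and it held 6 of the 9 annotated starts of protein-coding transcripts. Beyond it, control CMs had 1 region of 1239 bp upstream and KO CMs 1 of 1257 bp centered in intron 9.

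Motif matches were counted over the whole regions of the 9 genes, in bases covered in both lists (168654 bp), in KO CMs alone (68783 bp) or in control CMs alone (28523 bp). Matches to the MEF2 motif, the motif of a family of muscle transcription factors, numbered 11, at 7 of the genes, and all 11 lay in bases covered in both lists. This was 6.52 per 100 kb, beside 3.95 per 100 kb in the bases that both lists covered genome-wide. In bases covered in KO CMs alone the genome-wide density was 2.69 per 100 kb. The ERR motif, bound by nuclear receptors that RIP140 is known to repress, had 9 matches in bases covered in both lists (5.34 per 100 kb, beside 3.35 genome-wide), 3 in KO CMs alone (4.36, beside 3.34) and 0 in control CMs alone. The CArG box had 10, 2 and 1 matches (5.93, 2.91 and 3.51 per 100 kb, beside 5.57, 5.21 and 5.68 genome-wide). GATAAG had 73, 28 and 7 (43.3, 40.7 and 24.5, beside 35.3, 35.2 and 37.1). CATTCCA had 40, 13 and 7 (23.7, 18.9 and 24.5, beside 17.6, 17.6 and 17.4). Higher densities than genome-wide in shared bases were thus not particular to MEF2 and ERR. These counts are small, the bases were chosen by the regions, and a match is not evidence of binding.

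In the central 200 bp of each region, ERR matched 0 of 47 control and 1 of 49 KO regions (0.657% and 0.677% over all regions of those lists), MEF2 0 and 0 (1.10% and 1.05%), the CArG box 1 and 1 (1.04% and 1.09%), GATAAG 4 and 5 (6.82% and 6.60%) and CATTCCA 1 and 4 (3.32% and 3.41%). The only ERR match of these centers lay in the KO-only region of *Mybpc3* in intron 23, over the preceding exon.

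The 6 matches to the ERR motif or the CArG box in bases covered in 1 genotype alone are shown in windows of 101 bp centered on the match. Matches to GATAAG and CATTCCA in such bases are not shown. Each is read on the strand of its gene (GRCm38), with the match in capitals, and the ERR motif may appear as its reverse complement TGACCTTGA. The exon or intron named is that of the middle base of the window.
*Mybpc3*, ERR motif in coding exon 23, KO alone, chr2:91130889-91130989, plus strand: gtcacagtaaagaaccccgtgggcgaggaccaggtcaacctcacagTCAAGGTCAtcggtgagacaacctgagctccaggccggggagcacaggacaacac
*Actn2*, ERR motif in intron 15, KO alone, chr13:12278011-12278111, minus strand: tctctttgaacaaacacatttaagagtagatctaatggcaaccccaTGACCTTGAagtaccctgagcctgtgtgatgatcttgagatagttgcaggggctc
*Nexn*, ERR motif in coding exon 10, KO alone, chr3:152242647-152242747, minus strand: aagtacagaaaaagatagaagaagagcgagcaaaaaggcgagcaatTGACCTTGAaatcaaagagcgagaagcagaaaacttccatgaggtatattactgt
*Ttn*, CArG box in coding exon 98, KO alone, chr2:76873664-76873764, minus strand: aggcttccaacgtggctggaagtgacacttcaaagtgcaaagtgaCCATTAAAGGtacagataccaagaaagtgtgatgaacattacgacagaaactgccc
*Myom1*, CArG box in intron 22, KO alone, chr17:71098182-71098282, plus strand: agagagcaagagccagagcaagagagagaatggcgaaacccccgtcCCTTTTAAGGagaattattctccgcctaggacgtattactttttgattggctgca
*Ttn*, CArG box in intron 222, control alone, chr2:76807545-76807645, minus strand: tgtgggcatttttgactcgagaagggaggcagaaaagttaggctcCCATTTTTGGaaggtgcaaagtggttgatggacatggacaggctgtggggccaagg

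Of these 6 matches, 3 lay in coding exons by the middle base of the window. The other bases of a match were not placed and may run past the exon. The match of *Actn2* lay in the KO region of 9698 bp described above, in a stretch between the control regions. That of *Nexn* lay at the edge of its KO-only region. The control match of *Ttn* lay in the part of the intron 223 locus that the narrower KO region did not cover.

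The regions of the 9 genes were wide beside all regions of the lists. Widths were not compared with those at other genes of CMs, and a rule of overlap takes in wide regions more readily. Their median width was 2727 bp in control and 3007 bp in KO CMs, beside 1846 and 2291 bp over all regions. Regions of 5000 bp or more made up 25.5% and 32.7% of them, beside 13.1% and 17.7% overall. Those with 3 or more subpeaks, counted over the merged replicates, made up 53.2% and 57.1%, beside 31.1% and 39.0%. Their median GC content at the center, 45.0% and 45.5%, was close to that of all regions (46.0% and 47.0%). Of the control regions 39 of 47, and of the KO regions 41 of 49, had a start of 1 of the 9 genes as the nearest start of any gene. The other 8 of each list were nearest to *Myl12a*, *Stard3*, *Opn4*, *Madd*, *9230112D13Rik* or *Gm22066*. At the limit of the rule, the last region inside was a control region of 1522 bp that starts 4351 bp from *Csrp3*, and the first outside was a KO region of 1032 bp that lies 5251 bp from *Myoz2*. Both were shared.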

How the data were processed

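H3K27ac CUT&RUN was performed in CMs of csNrip1-/- mice and of Cre-negative littermates, with 3 H3K27ac and 3 IgG replicates per genotype, grouped by the labels. Per the methods and labels, the authors mapped reads with bowtie2 2.4.2 (GRCm38), dropped duplicate reads (samtools), called enriched regions per replicate against IgG with Homer 4.11.1 and merged them, keeping those found in at least 2 of 3 replicates. The authors deposited the start and end of each region in bp and a score, which is the same for every region and was not used. Region names give the number of subpeaks joined in the merging of replicates. This number mixes support by several replicates with the splitting of a region into parts. Depth per library is unknown. The authors' 1.5-fold comparison of pooled tag counts cannot be made from these lists.

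Starts were converted to 1-based positions, and analysis was limited to chromosomes 1 to 19, X and Y (21 control and 14 KO regions lay elsewhere). Genes came from GENCODE M21. A region was shared if it overlapped the other list by at least 1 bp. No test was run, since each genotype has 1 list, and shares have 95% Wilson intervals. Exons and introns are numbered in the transcript with the longest coding sequence. Motifs were searched in the GRCm38 genome on both strands, and the second Myom1 start came from RefSeq. Named were the 9 genes, Nrip1, neighbors with the nearest start, genes of the 2 wider lists that passed 1.5-fold or lay in 1 list, and cell type markers, where those with 0 bp in both lists and those with unlike values were picked after the values were seen. The members, the gene lists and the alternatives were chosen with earlier results of these data known. Alternatives changed the overlap rule, region width, numbers of regions, gene extension, assignment, promoter bounds and motif window. Scripts were tested on simulated data and used Python 3.11.15, numpy 2.4.6, scipy 1.17.1, pysam 0.24.0 and matplotlib 3.10.9.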

Additional observations from a re-analysis of the deposited data

How the results depend on the processing

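No paired analysis was possible because each genotype has 1 merged list and no values per replicate, and for the same reason no replicate could be left out. Of 82 alternative values for the 9 genes, 64 stayed within set limits of the reported value, 13 moved and 5 changed sign. The limits were 1.5-fold for counts, and the same sign and a 1.5-fold shift for log2 ratios. A 1.5-fold shift is larger than the ratio of the total itself (1.23-fold), so for log2 ratios this rule was lenient. The 8 control-only regions became 25 with a reciprocal overlap of 50%, 5 when regions no more than 1000 bp apart counted as shared, 4 with regions of at least 1000 bp, 4 with equal numbers of the widest regions, and 3 with regions of 3 or more subpeaks, the last chosen after seeing the data. The 13 KO-only regions became 20 when 50% of a region had to be covered, 27 with the reciprocal rule and 8 with regions of 3 or more subpeaks. With a limit of 2-fold, 3 loci were wider and 1 narrower in KO CMs. Regions holding any of the 5 motifs went from 16 in the central 200 bp to 45 in the central 1000 bp and 76 over whole regions, out of the regions of both lists. The log2 ratio of total covered length ranged from 0.20 (without Actn2) to 0.37 (gene bodies alone). It was 0.22 without Ldb3. The sign changed at Ttn (0.083 with regions of at least 1000 bp and with equal numbers of regions), at Myoz2 (0.076) and Nexn (0.13) with gene bodies alone, and at Tcap (0.021 with an extension of 10 kb), where gene bodies alone gave -3.38. The ratios of Mybpc3, Actn2, Ldb3, Myom1 and Csrp3 kept their sign under each alternative. Those of Csrp3 were small, from -0.16 with gene bodies alone to -0.00069 with an extension of 10 kb, so its sign carries little meaning. The cause of these changes was not tested beyond the construction of each alternative, and a covered length does not tell whether signal within a region differs.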

Other observations

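A wider list of 36 symbols of other Z-disc, M-band and titin-binding genes was looked at in the same way. The annotation held 35 of them, and 34 had bases covered in both lists. Over 1.5-fold more bases were covered in KO CMs at 6 of the 34 and over 1.5-fold fewer at 0, beside 16.3% and 8.6% of all genes. The share with more bases was thus near that of all genes. The median log2 ratio was 0.14, beside 0.084 over all genes. The 6 genes were Ankrd23 (2415 bp in control and 8318 bp in KO CMs, log2 1.78), which encodes an ankyrin repeat protein that binds titin, Trim54 (2362 and 6385 bp, log2 1.43) and Trim63 (2457 and 4057 bp, log2 0.72), which encode the muscle RING-finger ubiquitin ligases MuRF3 and MuRF1, Cryab (6114 and 10841 bp, log2 0.83), a small heat shock protein that binds desmin and titin, Fhl2 (20346 and 35242 bp, log2 0.79), a LIM protein that binds titin, and Obsl1 (2703 and 4617 bp, log2 0.77), an obscurin-like protein of the M-band. Mybphl, a myosin-binding protein H-like gene, had 2 regions (1574 bp) in KO CMs and none in control CMs. Promoters of 33 of the 35 genes were touched in control and of 34 in KO CMs, beside 45.4% and 48.1% of all protein-coding promoters.

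Of 9 paralogs that are used mainly outside the heart, 4 had a touched promoter in control and 3 in KO CMs, near the shares of 45.4% and 48.1% over all protein-coding promoters. Their median log2 ratio was 0.077 over the 8 covered in both lists. Myoz1, the fast-muscle paralog of Myoz2, had 1704 bp in control and 3141 bp in KO CMs (log2 0.88). Mybph had 2245 and 1340 bp (log2 -0.74), and Csrp1, a paralog of Csrp3, 10463 and 6939 bp (log2 -0.59). Actn3, the α-actinin of fast skeletal muscle fibers, had 1 region of 542 bp in control and none in KO CMs.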
